A study of Mus musculus with 4 samples.

Results

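The circadian clock genes described here are *Clock*, *Arntl* (also named *Bmal1*), *Per1*, *Per2*, *Per3*, *Cry1*, *Cry2*, *Bhlhe40*, *Dbp* and *Tef*, and their binding by the transcription factor NFIC was read from a peak list of mouse pancreas. A row of the list belonged to one of these 10 genes when its gene name or gene alias was the gene's symbol, which gave 18 peaks out of 15824. No row was matched by alias alone. The study mapped NFIC by chromatin immunoprecipitation and sequencing (ChIP-Seq) in pancreas of wild-type mice with no treatment named, which the deposited descriptions give as of mixed strain and 8 to 12 weeks old, with 3 libraries made with an NFIC antibody and 1 input library made without antibody. The paper's text gives a narrower age range within this one and a mainly C57BL/6 background for the colony. All the libraries came from whole pancreas, which holds acinar, ductal and endocrine cells, so a peak cannot be assigned to one cell type. The time of day at which the tissue was taken is not given in the sources used here. The libraries are represented by 1 merged list with no value per library, so a peak has neither a replicate error nor a known depth, and no test between libraries was possible.

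The mammalian clock is a transcriptional feedback loop. CLOCK and ARNTL bind E-boxes as a heterodimer and activate the *Per* and *Cry* genes, whose products return to the nucleus and repress that heterodimer. DBP and TEF act at D-boxes as clock outputs, BHLHE40 competes at E-boxes, and the REV-ERB and ROR nuclear receptors set the level of *Arntl*. The loop runs in peripheral organs, the pancreas included, and glucocorticoid hormone resets it in part through *Per1* and *Per2*. NFIC belongs to the nuclear factor I (NFI) proteins, which bind as a dimer to a palindromic site made of the arms TGGC and GCCA separated by 5 bases.

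The sequences below are the peaks on which the description of these genes turns: the strongest ones, the one at each bound promoter, and those that hold an NFI site beside a clock or glucocorticoid motif. They are the mm10 intervals of the list, read from RefSeq's GRCm38.p6 on the strand of the gene. Capitals mark NFI full sites (at most 1 mismatch in the 8 fixed bases), the E-box CACGTG, the E'-box CACGTT and glucocorticoid response elements (GNACA and TGTNC separated by 3 bases). Both *Per1* peaks lie in an exon that RefSeq only predicts, and for them a stretch of 30 bases is shown.
*Tef* promoter, chr15:81802473-81802645, plus strand: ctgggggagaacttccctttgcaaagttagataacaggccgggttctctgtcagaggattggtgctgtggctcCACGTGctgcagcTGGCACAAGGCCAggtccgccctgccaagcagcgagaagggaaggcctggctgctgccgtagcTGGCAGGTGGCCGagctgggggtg
*Per1* upstream, chr11:69097061-69097090, plus strand: GGGCCATCAGCCAagaGAACACGATGTTCc
*Per1* promoter, chr11:69098884-69098913, plus strand: ggctcttcGGGCAGAAGGCCAatgaggggc
*Per2* intron 9, chr1:91436432-91436604, minus strand: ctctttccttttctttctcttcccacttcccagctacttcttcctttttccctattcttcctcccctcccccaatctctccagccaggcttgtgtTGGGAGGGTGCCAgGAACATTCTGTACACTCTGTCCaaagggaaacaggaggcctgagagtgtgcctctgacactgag
*Arntl* intron 2, chr7:113242821-113242993, plus strand: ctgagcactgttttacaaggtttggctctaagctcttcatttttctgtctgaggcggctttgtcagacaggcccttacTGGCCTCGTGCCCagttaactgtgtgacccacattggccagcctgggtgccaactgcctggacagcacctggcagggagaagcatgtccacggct
*Cry2* intron 3, chr2:92423884-92424056, minus strand: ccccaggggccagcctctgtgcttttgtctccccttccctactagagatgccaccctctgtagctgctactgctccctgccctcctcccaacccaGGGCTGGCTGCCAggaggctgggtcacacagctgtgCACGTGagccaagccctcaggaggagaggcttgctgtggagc
*Bhlhe40* promoter, chr6:108659745-108659917, plus strand: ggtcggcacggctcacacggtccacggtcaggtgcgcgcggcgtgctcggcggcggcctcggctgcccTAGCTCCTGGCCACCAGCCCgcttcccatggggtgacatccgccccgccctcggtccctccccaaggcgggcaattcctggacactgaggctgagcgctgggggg
*Clock* promoter, chr5:76303907-76304079, minus strand: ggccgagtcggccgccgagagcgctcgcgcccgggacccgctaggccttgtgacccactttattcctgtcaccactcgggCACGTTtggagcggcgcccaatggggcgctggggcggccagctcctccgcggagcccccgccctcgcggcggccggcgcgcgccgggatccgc
*Cry1* promoter, chr10:85185317-85185489, minus strand: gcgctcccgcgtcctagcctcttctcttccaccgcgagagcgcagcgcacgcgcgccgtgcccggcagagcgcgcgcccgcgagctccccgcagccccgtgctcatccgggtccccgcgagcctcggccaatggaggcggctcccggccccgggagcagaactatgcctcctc

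Of the 10 clock genes, 9 had at least 1 peak, *Per3* being the exception. This share of 90.0% (95% Wilson interval 59.6 to 98.2%) stood beside 37.2% of the 21000 protein-coding genes of the annotation. Wilson intervals here cover counting error only, and the genes were chosen with results of these data known, so the shares are set side by side without a test. A peak between 1000 bp upstream of the transcription start site (TSS) and the TSS itself was listed for 4 of the 10, *Per1*, *Cry1*, *Bhlhe40* and *Clock*, against 10.7% of protein-coding genes. At least 3 peaks were listed for 3 of them, *Per2* with 4 and *Arntl* and *Cry2* with 3 each, against 6.38%. *Per1* and *Cry1* had 2 peaks, and *Clock*, *Bhlhe40*, *Dbp* and *Tef* had 1.

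The list gives each peak a score, on a scale that its sources do not name, which serves here only to order peaks within the list. The 18 peaks had a median score of 10.5, from 4.98 at *Cry1* to 34.9 at *Per1*, beside a median of 6.57 and a range of 3.39 to 68.1 over all peaks. The upper quartile of the list (scores of at least 9.16) held 12 of the 18, which is 66.7%, against 25.5% of all peaks by the same limit. None of the 18 was in the lowest quartile, and 15 scored above the median of the list. By gene, 7 of the 10 had a peak in the upper quartile, against 12.5% of protein-coding genes. The 3 without one were *Per3*, *Cry1* and *Tef*, and the last of these changes when peaks are assigned by position, as given for the D-box genes.

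**Figure D1:**
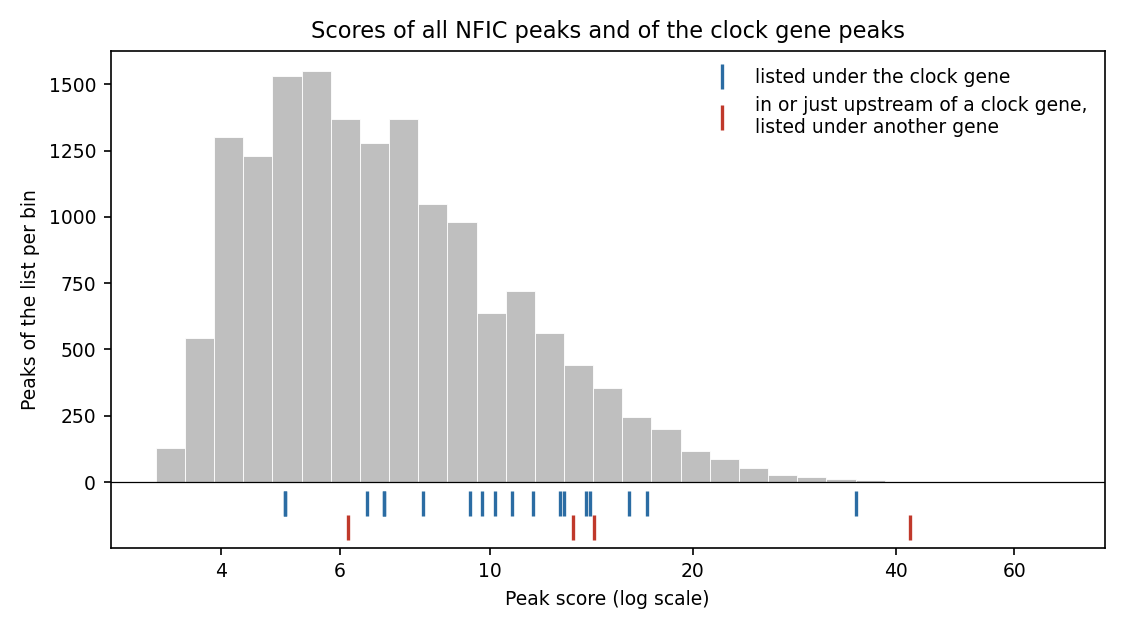
Histogram of the scores of all 15824 NFIC peaks (x axis, score on a log scale; y axis, peaks per bin), with a blue tick for each of the 18 peaks listed under a clock gene and a red tick for each of the 4 peaks in or just upstream of a clock gene that are listed under another gene. Most ticks lie to the right of the median of 6.57, and the rightmost, at 34.9 and 42.0, belong to *Per1* and to the *Tef* promoter.

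By class of position, the shares of these peaks lay near those of the whole list. Introns held 8 of the 18 (44.4%, against 40.8% of all peaks), promoters as the list classes them held 4 (22.2% against 20.7%), intergenic sequence held 5 (27.8% against 30.6%), and 1 was classed at a transcript end. The share within 1000 bp upstream of a TSS was also 22.2%, against 15.4% of all peaks. GC content ranged from 44.5 to 76.9% with a median of 56.4% (54.3% over all peaks). The highest GC contents were those of the *Clock* (76.9%), *Cry1* (75.7%) and *Bhlhe40* (74.0%) promoters. The list also gives each peak a focus ratio, which its header does not define. The median focus ratio was 0.706 for the 18 peaks, against 0.684 over all peaks.

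**Figure D2:**
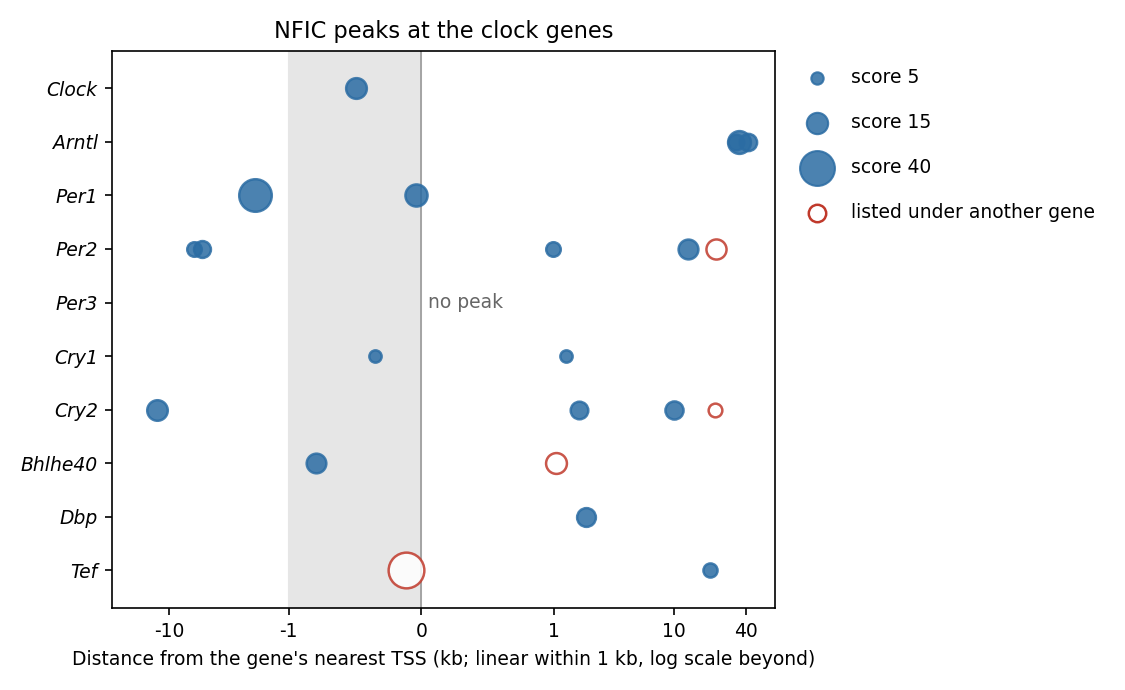
Position of each NFIC peak along the x axis as its distance in kb from the nearest TSS of the gene named on the y axis (linear within 1 kb, log scale beyond; the grey band marks 1 kb upstream), with symbol area proportional to score. Filled symbols are the 18 peaks listed under the gene and open symbols the 4 listed under another gene; 5 genes have a peak in the band, that of *Tef* being an open symbol.

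Both partners of the activating heterodimer were bound, *Clock* at a promoter and *Arntl* inside the gene. *Clock* had a single peak with a score of 14.1, centred 491 bp upstream of the TSS of the transcript NM_001305222 and within intron 1 of its longer transcripts. The 200 bp around its centre held an E'-box and no NFI full site. *Arntl* had no peak near a TSS. Its 3 peaks lay in intron 2, 33142, 35442 and 42177 bp downstream of the listed TSS, within a stretch of 9035 bp. The middle one, with a score of 17.1, was the strongest peak listed for an activator, and its NFI full site lay 2 bp from the peak centre. The first *Arntl* peak (score 7.97) also held an NFI full site, 13 bp from its centre, and the third (score 9.76) held none.

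Among the repressors, *Per1*, a period gene that resetting signals induce as an immediate early gene, carried the strongest peak listed under any of the 10 genes. Its score of 34.9 placed it 14th of the 15824 peaks, 1910 bp upstream of the TSS. That peak held 2 NFI full sites and 1 glucocorticoid response element, with 3 bases between the element and the nearer NFI site (sequence above). The farther NFI site runs past the end of the listed interval. The second *Per1* peak, 44 bp upstream of the TSS, had a score of 16.1 (rank 712) and held 3 NFI full sites, the nearest 7 bp from its centre. Both *Per1* peaks were in the upper quartile of the list, the upstream one being the stronger.

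*Per2*, which encodes a period protein that is needed for sustained rhythms in mice, had 4 listed peaks and none within 1000 bp upstream of its TSS. The strongest (score 12.9) lay in intron 4, 13050 bp downstream of the TSS. Its NFI full site was 90 bp from the centre, the farthest among peaks with such a site, and runs past the edge of the listed interval. The peak 5312 bp upstream scored 9.36, overlapped a MER58C DNA transposon remnant and held an NFI full site without mismatch. The other *Per2* peaks, in intron 1 at 993 bp and upstream at 6198 bp, had the same score of 6.97 and no NFI full site. A further peak lay in intron 9 of *Per2* but is listed under *Hes6*, a gene whose TSS is 22480 bp away. It scored 13.3, above every peak listed under *Per2*, and joined an NFI full site to 2 overlapping glucocorticoid response elements, the nearer one 1 base away. With it, 5 peaks spread over 29008 bp of the *Per2* locus, all but 2 of them in introns.

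The period gene *Per3* had no peak under its name, in its transcripts or within 1000 bp upstream. The nearest peak lay 13471 bp upstream of its TSS, with a score of 4.38, and is listed under *Vamp3*, which encodes a vesicle membrane protein. In all, 3 peaks lay within 50 kb of *Per3*. A gene with no row has no peak assigned to it, and a peak at a gene can be listed under another gene. At *Per3* the search by position found none either. The list gives no level below its threshold, so weaker binding at *Per3* cannot be told apart from none.

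The cryptochromes, which repress the heterodimer together with the period proteins, differed from each other in the strength and placement of their peaks. *Cry1* had 2 peaks, both with a score of 4.98, in the third quartile of the list. One was 349 bp upstream of the TSS and the other 1266 bp downstream in intron 1, and neither held an NFI full site or a clock motif. *Cry2* had 3 listed peaks, all in the upper quartile and none within 1000 bp upstream of its TSS. Their scores were 13.9 at 12760 bp upstream, 10.8 at 10099 bp downstream in intron 3, and 10.2 at 1610 bp downstream in intron 1. The intron 3 peak held an NFI full site and an E-box with 23 bases between them. The intron 1 peak, which the list classes at the end of the antisense transcript of D930015M05Rik, held an NFI full site without mismatch 10 bp from its centre. A further peak with an NFI full site without mismatch, in intron 10 of *Cry2*, scored 6.17 and is listed under D930015M05Rik, a non-coding gene that overlaps *Cry2*.

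*Bhlhe40*, the E-box competitor also known as DEC1, had 1 listed peak, 798 bp upstream of its TSS, with a score of 12.7. It held 2 overlapping NFI full sites, the nearer 5 bp from the centre. A second peak, with a score of 14.3 and an NFI full site, lay in intron 3, 1028 bp downstream of the *Bhlhe40* TSS. It is listed under 0610040F04Rik, the non-coding gene on the opposite strand whose TSS is nearer. The peaks were 1826 bp apart on either side of the *Bhlhe40* start, and which gene each belongs to cannot be told apart from position.

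The D-box activators *Dbp* and *Tef* each had 1 listed peak, and neither was within 1000 bp upstream of a TSS. The *Dbp* peak scored 11.6, lay 1835 bp downstream of the TSS in intron 2 of 3, and held none of the motifs searched. The peak listed under *Tef* scored 6.57, lay 20268 bp downstream of the nearest *Tef* TSS beyond the end of the gene, and held a ROR element (TAGGTCA). That element lies partly outside the listed interval. The strongest peak of any of these loci was, however, at the *Tef* promoter. Centred 114 bp upstream of the *Tef* TSS, it had a score of 42.0, the seventh highest of the list. Its class column names the *Tef* transcript NM_153484, while its gene column names Gm17597, a non-coding gene whose TSS is 54 bp away and whose exon 1 holds the peak.

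The *Tef* promoter peak held 2 NFI full sites, the first without mismatch and 6 bp from the peak centre. An E-box lay 7 bases upstream of that site. An NFI full site without mismatch and an E-box occurred together in 97 of all peaks (0.613%). Counted by position instead of by name, 9 of the 10 genes had a peak in their transcripts or within 1000 bp upstream, against 32.7% of protein-coding genes, and 5 of 10 had one within 1000 bp upstream of a TSS, against 13.1%. The gene gained by position was *Tef*. This count by position was added after the list had been examined.

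The share of clock gene peaks with an NFI full site lay close to that of the whole list. Motifs were searched on both strands in a window of 200 bp around each peak centre, which reaches past the 173 bp of the peak itself. A peak is said to hold a motif that lies in this window. In the peaks' own intervals 8 of the 18 held an NFI full site with at most 1 mismatch. In the 200-bp window such a site was present in 9 of the 18 peaks (50%, 95% Wilson interval 29 to 71%) and in 51.8% of all peaks. Without mismatch the site was present in 2 of the 18, the *Cry2* intron 1 peak and the *Per2* peak on the transposon remnant, and in 13.4% of all peaks. These exact sites are a subset of the full sites. The single arm TTGGCA, which may lie within a full site, was found in 33.3% of clock gene peaks and 33.6% of all peaks. Full sites went with score: 8 of the 12 clock gene peaks in the upper quartile held one, against 1 of the 6 others, and over the list the shares were 68.0% and 46.2%. All 4 peaks listed under another gene held one.

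At least 1 of 6 clock motifs was present in 3 of the 18 peaks, a share not below the 10.1% of all peaks. These were the E-box of the *Cry2* intron 3 peak (CACGTG, in 4.59% of all peaks), the E'-box of the *Clock* promoter peak (CACGTT, 3.12%) and the ROR element of the downstream *Tef* peak (1.68%). In the peaks' own intervals 2 were left, the ROR element lying partly outside. The E-box of the *Tef* promoter peak is not in this count, because that peak is listed under another gene. No clock gene peak held the D-box TTATGTAA (0.543% of all peaks), its variant TTACGTAA (0.0632%) or the cAMP response element TGACGTCA (0.543%). With 0 of 18, the interval reached up to 17.6%, so shares of the size seen in the list were not detectable at this number of peaks. The glucocorticoid response element was found in the upstream *Per1* peak and in 0.632% of all peaks. It occurred together with an NFI full site in 57 peaks of the list (0.36%), and the upstream *Per1* peak and the peak in *Per2* intron 9 were among these. A match of letters describes the sequence and does not show which protein was bound.

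**Figure D3:**
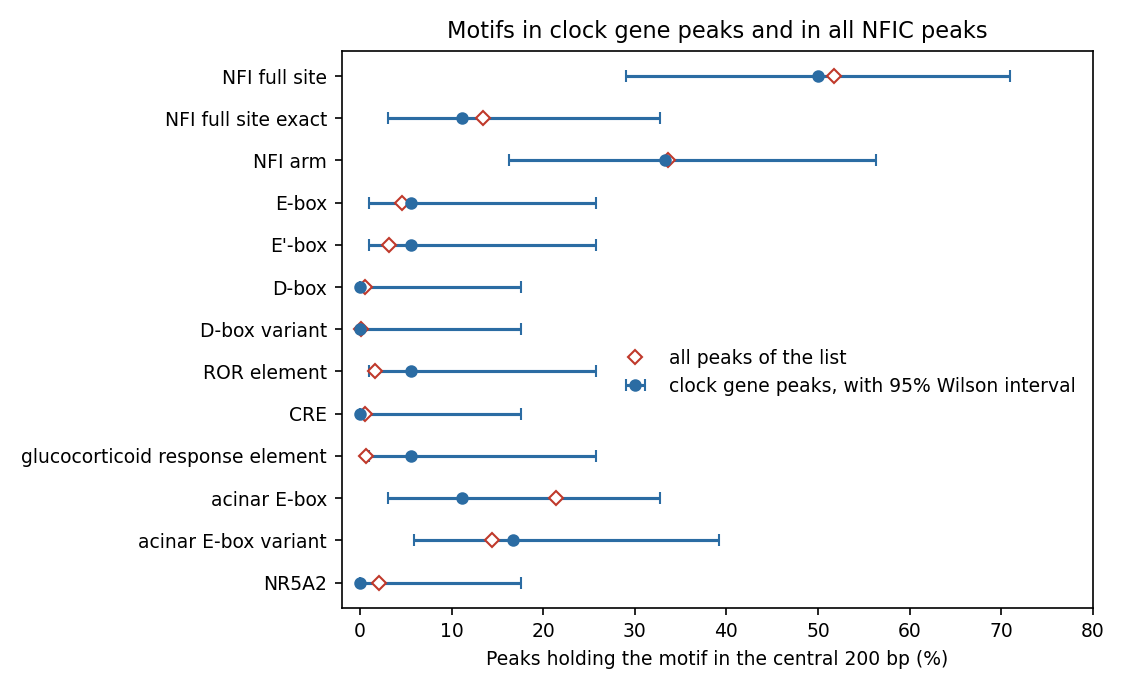
Share of peaks (x axis, %) that hold each motif (y axis) in the 200 bp around the peak centre, for the 18 clock gene peaks (blue, with the 95% Wilson interval) and for all 15824 peaks (open diamonds). NFI full sites stand at 50% and 51.8%, and the intervals of the clock motifs span from near 0 to 25.8% or less.

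The pancreatic acinar transcription factors PTF1A and NR5A2 also have known motifs. The E-box CAGCTG used by PTF1A was in 2 of the 18 peaks (11.1%, against 21.4% of all peaks), its variant CAGATG in 3 (16.7% against 14.4%), and the NR5A2 motif CAAGGTCA in none (2.03% of all peaks). The *Tef* promoter peak and the *Bhlhe40* intron 3 peak, listed under other genes, each held CAGCTG as well.

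Promoter sequence of RefSeq, from 250 bp before to 50 bp after the TSS, was at hand for 13 promoters of 8 of the genes, all but *Per2* and *Bhlhe40*. E-boxes were found at *Per1*, *Cry1* and *Tef*, in 4 of the 13 promoters (7.15% of all 32851 promoters). E'-boxes were at *Cry1* and *Cry2* (2 of 13, against 4.68%), a D-box at *Per3* (1 of 13, against 0.938%) and a ROR element at *Arntl* (1 of 13, against 2.61%). NFI full sites with at most 1 mismatch were found at *Arntl*, *Per1*, *Per3* and *Tef* (4 of 13, against 15.3%), and one without mismatch at *Tef* alone (1 of 13, against 0.807%). *Arntl* and *Per3* thus held an NFI full site in the promoter sequence while no peak was listed there, and *Cry1* and *Clock* had a promoter peak without one.

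For the rest of the clock, 22 further genes of the pathway were counted in the same way. Of these, 15 had at least 1 peak (68.2%, 95% Wilson interval 47.3 to 83.6%), 4 had one within 1000 bp upstream of the TSS (18.2%, 7.31 to 38.5%), and 9 had one in the upper quartile (40.9%). Over all protein-coding genes these shares were 37.2%, 10.7% and 12.5%. By position, 12 of the 22 (54.5%) had a peak in their transcripts or within 1000 bp upstream, against 32.7%. In the loop of nuclear receptors that sets *Arntl*, *Nr1d1*, which encodes REV-ERB alpha, had 1 promoter peak, 256 bp upstream of the TSS, with a score of 10.8. *Rora* reached 9.36 in an intron, while *Nr1d2* and *Rorb* had no peak. *Nfil3*, the repressor at D-boxes, had 6 listed peaks but none in its transcripts or within 1000 bp upstream. Its highest score of 19.1 was that of an intergenic peak 87099 bp upstream, and its nearest peak, 1072 bp upstream, scored 5.18. *Hlf*, the third D-box activator, had no listed peak.

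Among the enzymes that modify clock proteins, 4 of 7 had a peak (57.1%, 95% Wilson interval 25 to 84.2%), beside 37.2% of all protein-coding genes. The ubiquitin ligase subunit *Btrc*, which acts on period proteins, had a promoter peak with a score of 15.3. The casein kinases *Csnk1d* (13.1) and *Csnk1e* (9.36) had intronic peaks, and *Csnk2a1*, *Fbxl21* and *Fbxw11* had none. Of the clock-controlled genes *Usp2* had a promoter peak (12.9) and a stronger one in an intron (22.7), 5728 bp upstream of the listed TSS but inside its longer transcripts. *Nampt* had a promoter peak of 5.58. *Noct* had a highest score of 13.9 at an intergenic peak 67270 bp upstream and of 8.56 within the gene. The repressor *Cipc* reached 11.2 at an intergenic peak 23143 bp upstream, and *Ciart* had no peak. Of all the clock genes counted, *Per1* had the highest score by the list's own assignment, and the *Tef* promoter peak exceeded it by position. The median of the highest score per gene was 12.9 for the 9 bound genes of the 10, against 7.17 over the 9086 genes of the list. Those 9086 include non-coding genes. A highest score can also rise with the number of peaks, and 61.4% of the 9086 had 1 peak, against 4 of the 9.

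**Figure D4:**
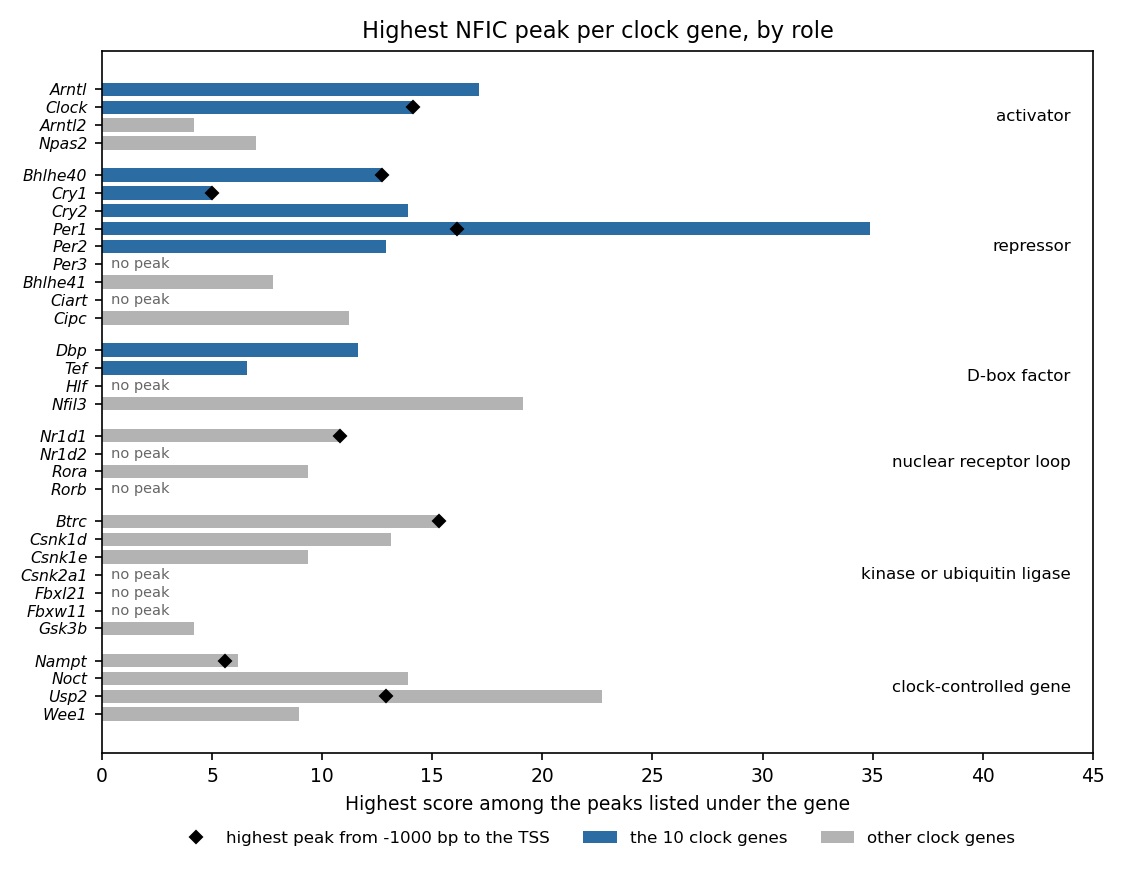
Highest score among the NFIC peaks listed under each clock gene counted (bars, x axis from 0), grouped by role, with the 10 genes of this description in blue and 22 others in grey; a diamond marks the highest score from 1000 bp upstream to the TSS. *Per1* has the longest bar (34.9), and 8 genes have no bar because no peak is listed under them.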

How the data were processed

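For the 3 NFIC ChIP-Seq libraries and the input library of mouse pancreas, the authors deposited 1 merged peak list on mm10. The submitters' processing notes name BWA, Picard and MACS2, and the methods name RUbioSeq+ and HOMER in a paragraph on downloaded data. Thresholds are not given in the sources used here. The deposited peak score is on a scale that is not stated, and the deposited fraction is the share of a peak's tags near its centre. The list has 0 columns per sample and none of the authors' comparisons, and depth is unknown.

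All 15824 peaks have a length of 173 bp. Distances are those of the list, negative upstream, except where a gene's own TSS is named. Of the peaks, 15812 have a gene ID found in the RefSeq annotation of GRCm38.p6, whose 21000 protein-coding genes are the background. This copy gave the same distance as the list for 92.6% of the peaks whose transcript it holds. Ranks are by score, with ties sharing a rank. Motifs (13) were searched on both strands with Python 3.11.15, numpy 2.4.6, pandas 2.3.3 and pysam 0.24.0, and Wilson intervals were computed with scipy 1.17.1. The search and the nearest-TSS assignment were tested on simulated data. The 10 genes, the motifs and the list of 22 further clock genes were chosen with earlier results of these data known. The text names all 10 genes, the genes that hold or neighbour their peaks, and, of the others, those with a promoter peak, a peak in the upper quartile or no peak. Some genes of the pathway are not reported here and are in none of the counts by pathway. No test was made. There were 11 alternatives: score limits, peaks merged within 1000 bp, RefSeq's nearest TSS, other promoter and motif windows, exact NFI sites, and assignment by position, which was added later.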

Additional observations from a re-analysis of the deposited data

How the results depend on the processing

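Of the alternatives, 53 values stayed within 1.5 times of, or within the interval around, the value reported, and 4 moved. The number of clock gene peaks with a clock motif was 5 in windows of 400 bp, against 3. The share over all peaks at that width is not given here, so this rise is not a result about these genes. Without mismatch an NFI full site was left in 2 peaks, against 9. Among the 22 further clock genes, 9 had a peak in the upper quartile, against 15 with any peak, and 8 had a peak within 5000 bp upstream of the TSS, against 4 within 1000 bp. Over all protein-coding genes those limits gave 12.5% and 13.3%. Each of these limits or windows lies within the main one or holds it, which sets the direction of the move. The size of the moves was not tested. Clock genes with a peak numbered 9 by RefSeq's nearest TSS and 9 by position, the latter chosen after seeing the data, and 7 in the upper quartile. No replicate could be left out, because the list holds no value per library, and the unknown depth limits what an absent peak, as at *Per3*, can show.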
